A study of Mus musculus with 4 samples.

Results

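Thalamus spots were the spots of the 4 sections that carry the deposited region label Thalamus and do not belong to expression cluster 21. There were 1827 of them among 10549 spots in all, with 545 in the wild-type section, 450 in the Dp16 section, 378 in the 5xFAD section and 454 in the 5xFAD-Dp16 section. A further 18 spots labelled Thalamus belonged to cluster 21 and were left out. The study placed 10 µm sections of frozen brain hemispheres from male mice at 9 months of age on Visium slides, which capture polyadenylated RNA on an array of barcoded spots. The hemispheres covered the range from 1 mm in front of bregma to 2 mm behind it. One section stood for each genotype. The wild-type animal was C57BL/6J, which carries neither alteration. The Dp16 animal carried an extra copy of a segment of mouse chromosome 16 whose genes match those of human chromosome 21, and serves as a model of Down syndrome. The 5xFAD animal carried transgenes for mutant human proteins of familial Alzheimer's disease, APP among them, which are driven by regulatory sequence of Thy1, and serves as a model of amyloid deposition. The 5xFAD-Dp16 animal carried both. A spot is a small area of tissue that can hold several cells of different types, so fewer cells of a type and less RNA per cell cannot be told apart in any value below. With 1 section per genotype, a difference between genotypes has no replicate, and no test of it was made.

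The thalamus relays sensory, motor and limbic signals to the cerebral cortex. Its relay nuclei are built mainly of glutamatergic projection neurons, which fire either single spikes or bursts driven by T-type calcium current. The transcription factors Tcf7l2, Gbx2 and Lef1 and the protein kinase C gene Prkcd are widely used to mark these neurons in mice. Inhibition comes largely from the reticular nucleus, a shell of GABAergic neurons around the relay nuclei.

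Depth per spot was similar in the thalamus spots of the 4 sections. In what follows, runs of 4 values stand in the order wild-type, Dp16, 5xFAD, 5xFAD-Dp16 unless said otherwise. The summed counts of unique molecular identifiers (UMIs, each one captured RNA molecule) were 6757625, 4712595, 3765588 and 4658004. Median UMIs per spot ranged from 9265 in 5xFAD to 11895 in wild-type, and the thalamus took 15.4% to 20.03% of the spots of a section. The median share of mitochondrial counts lay between 13.3% and 16.9%. Of 705 distinct thalamus barcodes, 476 occurred in 2 or more sections, because a Visium barcode names a position on the array. Levels are counts per 1000000 of the summed UMIs (CPM).

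The label matched its 4 marker genes. Prkcd, which encodes the delta isoform of protein kinase C, stood at 1133, 404, 789 and 612 CPM in thalamus spots, and at 37.3, 16.8, 29.2 and 19.3 CPM in the other spots of the same sections. The wild-type section was highest and the Dp16 section lowest, and each thalamus value lay far above all values elsewhere. In edgeR's quasi-likelihood test with the section as a block and Benjamini-Hochberg adjustment over 14789 genes, the log2 difference was 4.76 ± 0.09 (SE, n = 4 sections, adjusted p = 1e-08). Tcf7l2, a transcription factor of the Wnt pathway that acts in postmitotic thalamic neurons, was at 422, 326, 398 and 375 CPM against 15.8, 11.5, 16 and 11.8 elsewhere. Relative to the mean its 4 values were the closest together of the 4 markers, with those of Tnnt1 nearly as close. The log2 difference of Tcf7l2 was 4.75 ± 0.08. The homeobox gene Shox2 was at 127, 69.2, 84.4 and 72.6 CPM against 1.57 to 2.83 elsewhere, a log2 difference of 5.29 ± 0.12. Tnnt1, which encodes a troponin T of slow muscle and is also transcribed in thalamic neurons, was at 235, 180, 228 and 210 CPM against 9.06 to 11.8, a log2 difference of 4.34 ± 0.10. The 4 genes were given with the region as its markers, and 18.7% of all genes tested were called higher. The sources used here do not say how the region labels were drawn. If expression guided them, a test between labels is not independent of them, and its p-values describe only how steadily the difference repeated over 4 sections of different genotype.

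The promoters of these 4 markers are shown because the 4 genes set this region apart and because Tcf7l2 and Lef1 encode factors that bind one short motif. The sequences are the 250 bases upstream of an annotated start, read 5′ to 3′ on the strand of the gene, from RefSeq with build GRCm38.p6. Capitals mark a match to CTTTGAT or CTTTGTT on either strand.
Prkcd, chr14:30610311-30610560, minus strand: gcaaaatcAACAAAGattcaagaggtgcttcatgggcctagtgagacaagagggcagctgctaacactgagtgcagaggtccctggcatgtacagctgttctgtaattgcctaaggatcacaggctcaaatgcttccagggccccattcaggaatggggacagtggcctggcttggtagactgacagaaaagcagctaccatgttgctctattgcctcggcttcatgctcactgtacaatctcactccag
Tcf7l2, chr19:55895071-55895320, plus strand: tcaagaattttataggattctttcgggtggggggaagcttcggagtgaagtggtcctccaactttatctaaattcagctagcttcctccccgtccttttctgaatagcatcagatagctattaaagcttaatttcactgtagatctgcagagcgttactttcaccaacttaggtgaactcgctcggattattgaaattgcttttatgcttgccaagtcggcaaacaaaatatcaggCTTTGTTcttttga
Shox2, chr3:66981772-66982021, minus strand: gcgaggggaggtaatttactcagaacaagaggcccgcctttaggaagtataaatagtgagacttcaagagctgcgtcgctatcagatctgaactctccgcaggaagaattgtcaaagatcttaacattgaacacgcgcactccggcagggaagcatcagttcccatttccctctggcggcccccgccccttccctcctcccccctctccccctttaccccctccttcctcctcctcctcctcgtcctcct
Tnnt1, chr7:4515976-4516225, minus strand: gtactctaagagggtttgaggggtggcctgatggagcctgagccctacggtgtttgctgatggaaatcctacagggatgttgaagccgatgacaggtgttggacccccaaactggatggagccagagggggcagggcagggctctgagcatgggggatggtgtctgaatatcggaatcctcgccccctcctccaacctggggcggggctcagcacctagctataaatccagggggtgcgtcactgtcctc
Prkcd holds AACAAAG, the reverse complement of CTTTGTT, 242 bases before this start, and Tcf7l2 holds CTTTGTT 14 bases before it. Both genes have another annotated start, Prkcd at chr14:30626209-30626458 and Tcf7l2 at chr19:55741560-55741809, whose 250 upstream bases hold no match. The counts do not tell which start was used. Over the file as a whole 1029 of 14119 genes with a RefSeq promoter held a match in such a window (7.29%), and among the 20 genes of the relay identity list 2 of the 19 with a promoter did (10.5%). A match is a string of letters and not a site of binding.

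Genes of relay identity were higher in thalamus spots without exception in the list. All 20 of its members passed the test upward, with a median log2 difference of 3.59, where 18.7% of all genes tested were called higher, 20.3% were called lower and the median of all genes was -0.03. The list was drawn up with earlier results of these data known, so its direction is not independent evidence. Gbx2, a homeobox factor of thalamic development, had the highest log2 difference of any gene of at least 20 CPM that kept its sign in 4 sections, at 5.54 ± 0.17 (adjusted p = 1.1e-07). It was at 56.5, 21.9, 34.8 and 25.1 CPM in thalamus spots and below 1 CPM in the other spots of every section. Lef1, a partner of beta-catenin like Tcf7l2, was at 82.1, 39, 58.4 and 53.9 CPM with a difference of 4.04 ± 0.15. The orphan nuclear receptor gene Rora, the netrin-G gene Ntng1 and the G-protein regulator gene Rgs16 differed by 2.86, 3.26 and 3.64. Among the remaining highest genes were Plekhg1 (4.25), Slitrk6 (4.03), Synpo2 (4.03), Zic1 (3.69), Ramp3 (3.54), Vav3 (3.53), Rab37 (3.41) and Amotl1 (3.31). Of 11 genes of the Wnt pathway 7 were higher and 1 lower, with a median of 0.68.

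**Figure D1:**
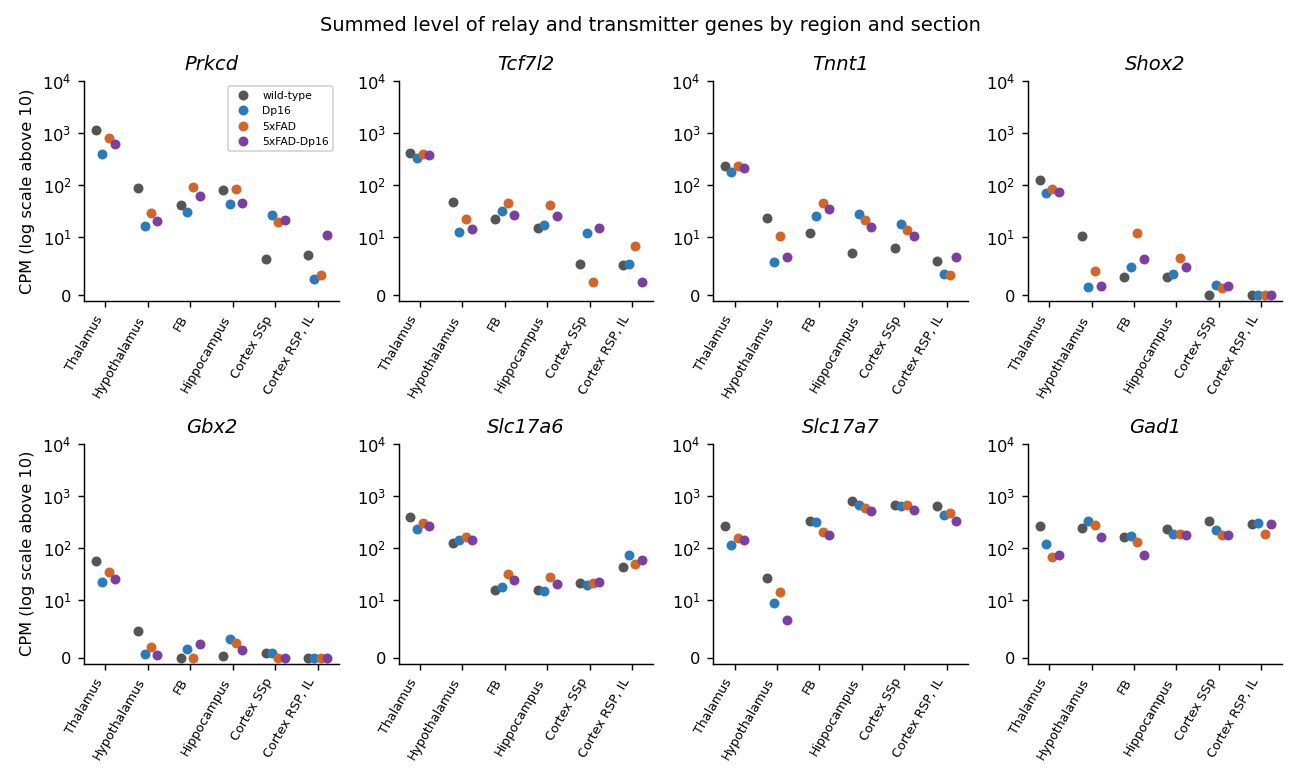
Summed level of 8 relay and transmitter genes in 6 regions, 1 point per section, in CPM on an axis that is linear below 10 and logarithmic above it. Prkcd, Tcf7l2, Tnnt1, Shox2 and Gbx2 are highest in thalamus spots in every section, while Slc17a7 and Gad1 are not.

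The levels in 12 regions with at least 30 labelled spots in every section (for VL in 5xFAD, 29 of them outside cluster 21) put the thalamus first for each marker. Prkcd averaged 735 ± 309 CPM (SD, n = 4 sections) in thalamus and 63.8 ± 22.0 in hippocampus, the next region in order. Tcf7l2 averaged 380 ± 41.2 CPM, and the next region, deposited under the label FB, averaged 31.5. Tnnt1 averaged 213 ± 24.8 CPM against 29.3 in FB, and Shox2 88.4 ± 26.8 against 6.57 in FB. Slc17a6, the vesicular glutamate transporter of subcortical neurons, averaged 296 ± 74.5 CPM against 142 ± 17.3 in hypothalamus, the next in order. The spread of Prkcd over the sections was much wider, for its mean, than that of Tcf7l2.

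Transmitter genes showed the excitatory make-up of the region. Slc17a6 was at 398, 227, 299 and 258 CPM in thalamus spots and at 37.9 to 42.2 in other spots, a log2 difference of 2.80. Slc17a7, the cortical form of the transporter, was lower than elsewhere by 1.51 on the log2 scale. Gad1, which makes GABA from glutamate, had a log2 difference of -0.85 (edgeR, adjusted p = 0.018), and Gad2 one of -0.43. In thalamus spots Gad1 was at 263, 118, 66.9 and 71.9 CPM, highest in wild-type. The wild-type hippocampus held 228 CPM of it and the cortical label SSp 330 CPM. Of 16 genes of reticular and other inhibitory neurons 12 were lower and 1 was higher, with a median of -1.52. Of all genes 20.3% were lower and 18.7% higher. The summed level of these 16 was 1591, 847, 653 and 668 CPM in thalamus spots. In the other spots it was 1906, 1902, 1471 and 1591 CPM. Pvalb, a calcium buffer of fast-spiking inhibitory neurons, did not pass the test at 0.12 (adjusted p = 0.82), nor did Six3, a reticular marker, at 0.30 (adjusted p = 0.73). Without the wild-type section these differences were -0.44 and -1.41, and Pvalb then passed the test downward (edgeR, adjusted p = 2.4e-04). Calb2, the calretinin gene, was higher by 1.56, whereas Calb1 was at -0.08.

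Among 18 genes of burst firing and membrane currents 11 were higher and 4 lower, with a median log2 difference of 0.67. The shares of all genes, here and for the receptor lists below, were 18.7% higher and 20.3% lower. The comparison of these lists with hypothalamus is also given below. Cacna1g, the T-type channel of relay neurons, was at 129, 61.1, 82.1 and 74.9 CPM with a difference of 2.13. The other T-type channels went the other way, Cacna1h with -1.75 and Cacna1i with -0.56. Of the channels of the hyperpolarisation-activated current, Hcn4 stood at 26.8, 15.3, 24.2 and 19.1 CPM with a difference of 3.18 and Hcn2 was higher by 1.31. The fast potassium channels Kcnc2 and Kcnc1 were higher by 1.91 and 1.17, and the leak channel Kcnk3 by 1.41. Among 12 GABA-A subunits, beside 18.7% higher and 20.3% lower of all genes, 3 were higher (Gabra4 by 1.66, Gabrd by 1.14, Gabrg1 by 0.50) and 4 lower (Gabra5 at -2.28 and Gabra2 at -1.26 among them). Gabra4 and Gabrd encode subunits of the extrasynaptic receptor that carries tonic inhibition. Of 23 glutamate receptor genes 10 were higher and 8 lower, with the metabotropic gene Grm4 (2.82) and the NMDA subunits Grin2d (1.65) and Grin2c (1.49) among those higher. The AMPA subunits moved apart, Gria4 up by 0.78 and Gria2 at -1.53.

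Against the other spots as a whole, most astrocyte and myelin genes were higher too, and most activity-regulated genes were lower. Of all genes 18.7% were higher and 20.3% lower. The same lists against hypothalamus are given below. Of 16 astrocyte genes 14 were higher and 1 was lower (Slc1a3, -0.38), with a median of 0.69, led by the GABA transporter Slc6a11 (1.78), angiotensinogen (Agt, 1.63) and the glycine transporter Slc6a9 (1.28). Gfap, the intermediate filament gene, was lower by 0.70 (fold on the log2 scale -0.70, edgeR adjusted p = 0.037). Of 18 oligodendrocyte and myelin genes 14 were higher and 1 lower, with a median of 0.37. Of 15 immediate early genes, which neurons switch on with activity, none was higher and 12 were lower, with a median of -1.90. They included Egr2 (-4.63), Egr3 (-4.48), Egr4 (-4.04), Junb (-2.36), Arc (-2.29) and Nr4a1 (-1.93). Of 12 vessel genes 5 were higher and none lower. Of 12 homeostatic microglial genes none passed upward and 1 passed downward.

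Most markers of cortex, hippocampus, choroid plexus and meninges were lower, beside 18.7% higher and 20.3% lower of all genes. The cortical list had 11 of 13 genes lower with a median of -3.21 and 2 higher, and the hippocampal list 8 of 9 lower and 1 higher. The choroid plexus list had 8 of 9 lower and none higher with a median of -4.04, and the meningeal list 8 of 10 lower and none higher. Other lists were less uniform. Of 11 hypothalamic genes tested 5 were lower and none higher. Of 8 habenular genes 3 were lower and 2 higher, and of 10 striatal genes 6 were lower and 2 higher. Among the lowest genes by the same rule were Gm11549 (-6.60), Kcnj13 (-6.03), Vip (-5.97), Fezf2 (-5.74), Crym (-5.67), Cort (-5.56), Hcrt (-5.55), Ttr (-5.49) and Car12 (-5.44). The value of Hcrt rests on the wild-type section, whose hypothalamus held 5263 CPM against at most 1.71 in the other sections, and against the other spots its log2 difference of -5.55 was -1.62 without that section (edgeR, adjusted p = 0.054). Fezf2 encodes a transcription factor of deep cortical layers, and Kcnj13 and Ttr are choroid plexus genes. Ttr still stood at 164, 628, 349 and 958 CPM in thalamus spots, highest in both sections with the duplication.

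Against hypothalamus, the other diencephalic label, the relay genes again led. Thalamus spots were compared with 1361 hypothalamus spots over 12508 genes, of which 12.2% (1529) were higher and 10.5% (1313) lower in thalamus in edgeR's quasi-likelihood test. Without the 5xFAD section the counts were 723 and 247, and without 5xFAD-Dp16 they were 657 and 233. Of the 20 relay genes 19 were higher and none lower, led by Shox2 (4.39 ± 0.29, SE, n = 4 sections), Prkcd (4.36), Tnnt1 (4.24), Gbx2 (4.19), Tcf7l2 (4.02), Plekhg1 (3.94), Lef1 (3.87) and Ramp3 (3.84). The lowest were Oxt (-7.68) and Avp (-6.21), the oxytocin and vasopressin genes, followed by Cartpt (-4.80), Irs4 (-4.57) and Tac2 (-4.37). The thalamus level of Tac2 leaves out cluster 21, whose spots held 2467 CPM in wild-type and 1147 in 5xFAD. The comparison with hypothalamus was not run with those spots kept, and against the other spots its log2 difference of -3.37 was -0.87 with those spots kept (edgeR, adjusted p = 0.26). Slc17a7, lower than in the other spots as a whole, was higher than in hypothalamus by 3.58, and Slc17a6 was higher by 0.92. Gad1 and Gad2 were lower by 1.24 and 1.38 (log2 differences of -1.24 and -1.38). The wild-type section went the other way for Gad1, with 263 CPM in thalamus and 241 CPM in hypothalamus. Of 9 hypothalamic genes tested 8 were lower and none was higher. Beside 12.2% higher and 10.5% lower of all genes, 4 of 13 immediate early genes were higher and 1 was lower (median 0.22). Myelin genes had 2 of 18 higher and none lower, and astrocyte genes 4 of 16 higher and none lower. Genes of burst firing and membrane currents had 4 of 18 higher and 3 lower. Glutamate receptor genes had 9 of 23 higher and 2 lower, and GABA-A subunits 2 of 11 higher and 3 lower.

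The spots of the region fell into several of the deposited expression clusters, in shares that differed between sections. Cluster 1, led by Prkcd, Tnnt1, Ptpn3 and Rasgrp1, held 976 thalamus spots, with shares of 82.0%, 34.9%, 50.3% and 40.1%. Cluster 4, led by Pth2, Ngb, Baiap3, Tac1 and Penk, held 1.28%, 28.9%, 12.2% and 24.2%. Cluster 6, led by Slc32a1, Cabp7 and Sln, held 2.75%, 22.2%, 11.4% and 12.3%. Cluster 17, led by Ctxn3, Cbln1 and Lypd6b, was absent from the wild-type spots and held 8.67%, 14.6% and 11.5% of the others. Cluster 10, led by Six3, Trh and Gad1, held 7.89% in wild-type and 0.66% to 1.56% elsewhere. Cluster 11, led by Cst7, Gpnmb and Tyrobp, held 5.29% in 5xFAD, 4.85% in 5xFAD-Dp16 and no spot of the other sections. The wild-type section therefore stood apart from the other 3 in its cluster shares, and the share of cluster 1 in it was more than 1.5 times that of any other section. Whether the plane of section, the drawn outline of the region or the genotype set these shares cannot be told apart with 1 section per genotype.

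**Figure D2:**
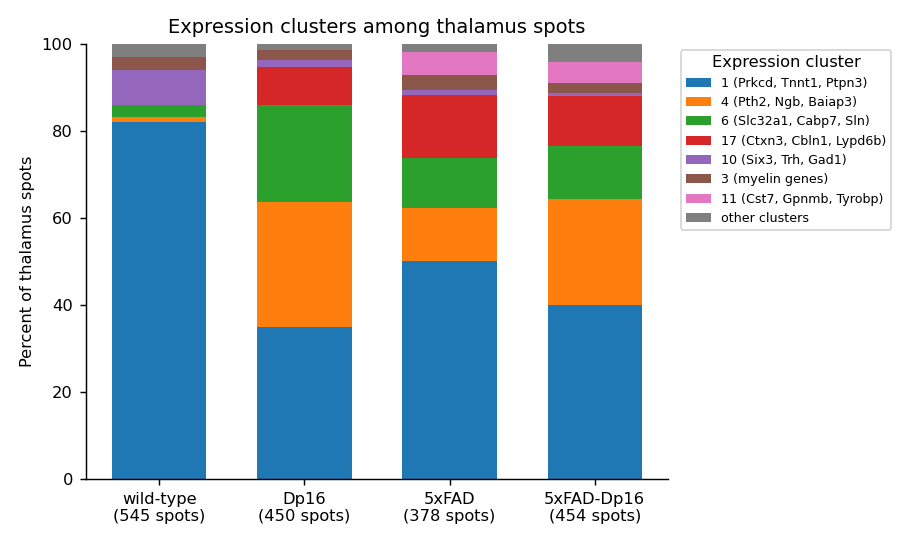
Percent of thalamus spots in each deposited expression cluster, 1 bar per section, with the leading genes of each cluster in the key. Cluster 1 holds 82.0% of the wild-type spots and 34.9% to 50.3% of the spots of the other sections, where clusters 4, 6 and 17 take up the difference.

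The clusters correspond to different levels of the relay genes, as a description, since they were made from expression. Prkcd was at 1323, 1155, 1595 and 1433 CPM in cluster 1, and outside wild-type at 22.1, 55.8 and 26.5 CPM in cluster 4 and at 114, 207 and 151 CPM in cluster 17. Tcf7l2 varied less, with 489 to 605 CPM in cluster 1, 252 to 327 in cluster 4 and 287 to 371 in cluster 17. In cluster 6 Tcf7l2 was at 88.1 to 139 CPM and Gad1 at 187 to 441 CPM. In cluster 10 of the wild-type section Tcf7l2 was at 31.8 CPM while Gad1 reached 2822 and Pvalb 4373 CPM, so the relay markers were low in these 43 spots in spite of their label. Calb2 was highest in cluster 4, at 448, 1122 and 554 CPM in Dp16, 5xFAD and 5xFAD-Dp16, against 155 to 249 CPM in cluster 1. Slc17a7 was at 299 to 319 CPM in cluster 1 and at 10.6 to 28.9 in cluster 4.

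Single spots told the same of each gene. After thinning every spot to 5000 UMIs, Tcf7l2 was detected in 73.1%, 71.7%, 75.5% and 68.9% of thalamus spots, and in 2.68% to 3.58% of cortical spots, which should lack it. Prkcd was detected in 83.4%, 44.5%, 67.4% and 52.9%, against 3.87% to 6.30% of cortical spots. Without thinning its shares in the first pair of sections were 89.5% and 52.9%. Thinning left out 10, 12, 10 and 29 thalamus spots below that depth, and the median depth of cortical spots ran from 9698 to 13377 UMIs. Calb2 went the opposite way from Prkcd, with 27.3%, 47.7%, 36.7% and 42.1%, against 10.7% to 15.4% of cortical spots. Six3 was detected in 9.53% of wild-type spots (exact binomial interval 7.18% to 12.3%, counting error only) and in 0.471% to 1.37% of the others, beside 0.571% to 2.03% of cortical spots. The cortical spots are no empty background for Six3, which stood at 2.75 to 14.7 CPM under the cortical label CTXsp. Across the spots of a section, Prkcd followed Tnnt1 with a Spearman rho of 0.61, 0.786, 0.794 and 0.786, and Rora with 0.679 to 0.774. It ran against Calb2 (rho from -0.409 to -0.272) and Gad1 (from -0.448 to -0.26). Its relation to Tcf7l2 was looser, from 0.324 to 0.497. The points of each correlation share 1 library and vary in depth, so these are descriptions.

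The genotype comparisons follow, each in a pair of sections without the 5xFAD transgenes and a pair with them. Because of the cluster shares above, list medians, and the genes whose ratios moved most, are given both for all thalamus spots and for those of cluster 1. The second holds the deposited cluster fixed, and how much of the difference in make-up this removes was not tested. It also removes the spots of cluster 11 and rests on clusters that were made from expression. Cluster 1 is itself led by relay genes, Prkcd and Tnnt1 first. Its spots may thus be alike in the relay list because of how they were grouped, which was not tested. The relay list is given with that limit. Its summed level was 6467, 3228, 4492 and 3893 CPM in all thalamus spots, and 7227, 7197, 7902 and 7786 CPM in cluster 1. Relative to the median of all genes, its median log2 ratio was -0.94 for Dp16 over wild-type, with 17 of 20 genes at least 1.5-fold lower (background 14.2% of all genes outside the duplicated segment), and 0.01 in cluster 1. For 5xFAD-Dp16 over 5xFAD it was -0.17 and 0.03. Prkcd had a log2 ratio of -1.49 for Dp16 over wild-type in all spots and -0.20 in cluster 1. The list of membrane currents behaved alike, at -0.59 and -0.08. Within cluster 1 the relay list's relative median lay between -0.01 and 0.09 in the 4 pairs. Tnnt1 there was at 272, 538, 476 and 501 CPM, lowest in the wild-type section.

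Several relay and receptor genes differed widely in all spots and less in cluster 1, while Tnnt1, above, did the opposite. Rora was at 361, 153, 243 and 192 CPM in all thalamus spots and at 417, 405, 481 and 421 CPM in cluster 1. Ramp3, a partner protein of peptide hormone receptors, was at 364, 162, 269 and 254 CPM and in cluster 1 at 387, 435, 520 and 557 CPM. Gabrd moved from 144, 56.4, 102 and 72.6 CPM to 166, 159, 212 and 169 CPM. Gbx2 kept the wild-type section highest in cluster 1, at 66.1, 52.9, 45.6 and 47.2 CPM, and so did Slc17a6, at 455, 339, 385 and 352 CPM. Of the 20 relay genes, 6 were at least 1.5-fold lower for 5xFAD over wild-type in all spots (background 5.74%) and none in cluster 1, where Tnnt1 was past that fold upward, and for 5xFAD-Dp16 over Dp16 3 were higher in all spots (background 4.89%). The Dp16 and 5xFAD comparisons without the other alteration share the wild-type section, so their values are not independent.

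Lists of other tissue and of general cell function were read beside these. Genes of cortical neurons had relative medians of 1.23 and -0.12 in the Dp16 pairs and 0.25 and 0.13 in the 5xFAD pairs. In cluster 1 these were 0.14, 0.003, -0.0471 and -0.25. The list was split for Dp16 over wild-type: of 7 genes measured 4 were at least 1.5-fold higher and 3 lower (background 5.91% and 14.2%). Its summed level was 428, 294, 357 and 329 CPM, highest in wild-type. Choroid plexus genes had 1.08 and 1.17 in the Dp16 pairs and 0.68 and 0.43 in the 5xFAD pairs. In cluster 1 the choroid plexus values were 0.52, -0.11, 0.30 and -1.09. Nuclear genes of oxidative phosphorylation, 51 in number, had 0.30 and 0.14 in the Dp16 pairs and none was past 1.5-fold, and in cluster 1 the medians were 0.02 and -0.003. The 12 vessel genes had -0.29, 0.04, -0.08 and 0.03, and in cluster 1 0.14, -0.11, 0.02 and -0.003. Oligodendrocyte and myelin genes had 0.24 and 0.28 when Dp16 or 5xFAD was set against wild-type, and -0.20 and -0.21 in the pairs that end in 5xFAD-Dp16. In cluster 1 these were 0.48 and 0.46, and -0.0458 and -0.0729. Mag, a glycoprotein of the inner myelin wrap, was at 256, 282, 334 and 249 CPM, highest in the 5xFAD section. Of 10 immediate early genes measured 6 were at least 1.5-fold lower for Dp16 over wild-type (background 14.2%), and none was past that fold for 5xFAD-Dp16 over 5xFAD. The list's relative medians were -0.58 and 0.06 in the Dp16 pairs and -0.36 and 0.43 in the 5xFAD pairs, and in the same order in cluster 1 -0.40, 0.075, -0.15 and 0.35. Fos was at 39.5, 19.1, 19.9 and 23.8 CPM and Dusp1, a phosphatase gene of the same class, at 64.4, 21.6, 43.6 and 43.2 CPM, both highest in wild-type.

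Genes of the duplicated segment were higher in both sections that carry it, as the labels state. The segment, from Lipi to Zbtb21 on chromosome 16 (RefSeq GRCm38.p6, 75540514 to 97962627), had 66 genes of at least 5 CPM on average among 111 in the file. Their median log2 ratio, relative to all genes, was 0.64 in the first Dp16 pair and 0.57 in the pair with the transgenes, and 0.53 and 0.54 in cluster 1. The 5xFAD comparisons, where both sections have the same number of copies, gave 0.125 and 0.049. At least 1.5-fold higher were 24 of 66 genes in the first pair and 25 in the second, 13 in both, where the background outside the segment was 5.91% and 2.67%. Sod1, the cytosolic superoxide dismutase, was at 235, 365, 285 and 358 CPM, with log2 ratios of 0.64 and 0.33. The mitochondrial ATP synthase subunits Atp5j (883, 1484, 885 and 1396 CPM) and Atp5o (614, 981, 612 and 970 CPM) had ratios of 0.75 and 0.66 and of 0.68 and 0.66. In these 3 genes both sections with the duplication lay above both without it. The calcineurin regulator gene Rcan1 was at 24.7, 47.1, 26.8 and 45.3 CPM, with ratios of 0.93 and 0.76, and 0.39 and 0.43 in cluster 1. The carbonyl reductase genes Cbr3 (1.05 and 1.63) and Cbr1 (1.09 and 0.72), with Smim11 (1.10 and 0.93), Rbm11 (1.39 and 0.92) and Mrps6 (1.03 and 0.78), were also among the highest. In cluster 1 Cbr1 had 0.47 and 0.53, Smim11 0.47 and 0.44 and Mrps6 0.32 and 0.71.

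Some segment genes depended on which spots were counted. App, the amyloid precursor gene, was at 959, 1044, 907 and 1084 CPM, with log2 ratios of 0.12 (counting interval 0.07 to 0.18) and 0.26 (0.20 to 0.32). In cluster 1 it was at 966, 1325, 1058 and 1476 CPM, with ratios of 0.46 and 0.48. Whether counts of App include reads of the human transgene was not tested. Pcp4, a calmodulin-binding protein gene, was the most abundant case, at 6651, 4331, 3462 and 4798 CPM in all spots, with ratios of -0.62 and 0.47, and at 7690, 10970, 6743 and 10260 CPM in cluster 1, with 0.51 and 0.61. The kinase gene Dyrk1a had -0.13 and 0.56 in all spots and 0.37 and 0.75 in cluster 1. Btg3 went the other way, from 1.31 and 0.85 in all spots to 0.17 and -0.04 in cluster 1. The interferon receptor genes of the segment had ratios of 0.50 and 1.47 (Ifnar1, with -0.0378 and 1.32 in cluster 1), 1.06 and 0.27 (Ifnar2) and 0.35 and 0.64 (Ifngr2).

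Outside the segment, few genes differed alike in both Dp16 pairs. For Dp16 over wild-type 5.91% of 10752 genes were at least 1.5-fold higher and 14.2% lower, and for 5xFAD-Dp16 over 5xFAD 2.67% and 3.33%. With TMM scaling the genes past that fold were 838 higher and 1075 lower in the first pair, against 635 and 1522 without it, and 359 and 280 in the second, against 287 and 358. Past it in both pairs were 93 genes higher and 101 lower, of which 12 and 21 were also past it in both pairs within cluster 1. With TMM scaling the counts in both pairs were 122 higher and 65 lower. Ifi27l2a, an interferon-induced gene, was at 2.66, 11.5, 18.9 and 53.2 CPM, with log2 ratios of 2.10 (1.31 to 2.96) and 1.498 (1.11 to 1.90), and 1.46 and 1.71 in cluster 1. Each section with the duplication was above its partner, and 5xFAD-Dp16 was above all. The 6 interferon-stimulated genes measured had a relative median of 0.81 and 0.66, and of 0.55 and 0.76 in cluster 1. The list was also higher in the 5xFAD pairs, at 1.13 and 0.87, and at 0.85 and 0.97 in cluster 1. Past 1.5-fold upward in both Dp16 pairs was 1 of the 6, beside 93 of 10752 genes. Members of the list were uneven in the Dp16 pairs. Ifi27 had ratios of 1.20 and 0.49 and Ifit3 1.55 and 0.49, while Bst2 had -0.36 and 0.56 and Ifitm3 0.15 and 1.02. Prph, which encodes the intermediate filament peripherin, was at 2.37, 11.2, 3.19 and 9.45 CPM, with ratios of 2.25 and 1.57 and of 2.43 and 2.08 in cluster 1.

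The other genes at the top or bottom of the Dp16 ratios were of several kinds. Haemoglobin transcripts were lower in both sections with the duplication, Hbb-bs at 662, 251, 542 and 224 CPM with ratios of -1.40 and -1.28, and -1.55 and -0.39 in cluster 1. The 4 measured blood genes had relative medians of -1.304 and -1.23, with all 4 at least 1.5-fold lower in both pairs (background 14.2% and 3.33%), and of -1.52 and -0.30 in cluster 1. Whether residual blood differed between the sections was not tested. Pmch, the hypothalamic peptide gene, was at 458, 1.27, 1.86 and 0.429 CPM, and the 12 thalamus spots of cluster 15, which Pmch leads, were all in the wild-type section. Six3 was at 43.8, 2.76, 2.39 and 1.07 CPM and followed cluster 10. Ttr, with 1.94 and 1.46 in all spots, had -0.26 in the second pair in cluster 1, where Sspo, Mia and Myh7 also had negative ratios in that pair and Lmo3 in both. Abhd12b was at 28.1, 2.76, 22.3 and 8.37 CPM, with ratios of -3.35 and -1.41, and -2.16 and -1.26 in cluster 1.

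Of the 4 sets of genes that differed alike in both pairs, that of genes higher with 5xFAD was the largest, and many of its members were immune genes. For 5xFAD over wild-type 6.09% of genes were at least 1.5-fold higher and 5.74% lower, and for 5xFAD-Dp16 over Dp16 4.89% and 2.08%. Past that fold in both were 151 genes higher, of which 101 were also past it in cluster 1 and 45 belong to the microglial, complement, antigen presentation and reactive astrocyte lists, and 36 genes lower, of which 10 were past it in cluster 1. The spots of cluster 1 alone gave 76 lower genes. Cst7, a cystatin of microglia around plaques, was at 0.444, 0.212, 152 and 107 CPM, with log2 ratios of 8.42 (6.86 to 10.7) and 8.97, where the wild-type and Dp16 values rest on 3 UMIs and 1. Trem2, the lipid receptor of microglia, was at 22.8, 24.8, 173 and 132 CPM, with ratios of 2.92 and 2.41. Tyrobp, its signalling adaptor, was at 88.5, 88.7, 533 and 406 CPM. In these genes both 5xFAD sections lay far above both others, and the 5xFAD section above 5xFAD-Dp16.

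The list of plaque-associated microglia moved nearly whole. Of 30 measured genes 26 were at least 1.5-fold higher in the first pair and 25 in the second, 24 in both, against the 6.09% and 4.89% of all genes. Like the relay list, this list was drawn up with earlier results of these data known, so its direction is not independent evidence. Its relative median was 1.76 and 1.68, and 1.86 and 1.92 in cluster 1. In the other spots of the same sections it was 0.97 and 0.87, and the difference between thalamus and other spots has no replicate and was not tested. Among its members the cathepsin gene Ctsd was at 320.5, 286, 1128 and 977 CPM, Apoe at 2056, 2086, 2882 and 2572 CPM and the lysozyme gene Lyz2 at 26.2, 20.2, 100.4 and 96.0 CPM. The chemokine genes Ccl3 and Ccl6 had ratios of 4.12 and 4.23 and of 3.76 and 3.15, and Gpnmb 4.77 and 3.99 (4.72 and 2.04 in cluster 1). Axl, a receptor tyrosine kinase gene, was at 32.9, 28.2, 34.5 and 33.3 CPM, with ratios of 0.07 and 0.24. Within the expression clusters, Cst7 reached 1064 and 1203 CPM in cluster 11 of 5xFAD and 5xFAD-Dp16, 131 and 120 CPM in cluster 1, 148 and 87.9 CPM in cluster 17, and 13.5 and 8.32 CPM in cluster 4. The signal was thus highest in the few spots of cluster 11, which it helped to define, and low in the spots of cluster 4, where Calb2 is highest. Spp1 differed by 0.49 and 1.84 in all spots and by 2.14 and 3.17 in cluster 1.

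Complement genes had relative medians of 1.86 and 1.43 (1.84 and 1.38 in cluster 1), and antigen presentation genes of 1.23 and 0.86 (1.33 and 1.18). C1qa, C1qb and C1qc, the subunits that start the classical complement cascade, had ratios of 1.77, 1.62 and 1.81 in the first pair and 1.46, 1.43 and 1.39 in the second. C4b was at 12.1, 14.0, 66.7 and 50.7 CPM, with ratios of 2.46 and 1.85, and 3.73 and 2.11 in cluster 1. B2m, the light chain of MHC class I, was at 133, 148, 343 and 361 CPM. The homeostatic microglial list had relative medians of 0.95 and 0.91 (1.13 and 0.90 in cluster 1) with wide spread among 12 genes: Fcrls was at 14.7, 13.2, 67.7 and 53.7 CPM, whereas P2ry12 had ratios of 0.49 and 0.32 and Tmem119 0.07 and 0.60. Reactive astrocyte genes had relative medians of 1.43 and 0.71, and of 1.56 and 0.30 in cluster 1. Gfap was at 34.9, 27.6, 212 and 112 CPM, with ratios of 2.60 and 2.02, and in cluster 1 at 10.3, 11.9, 218 and 130 CPM, with 4.40 and 3.45. Serpina3n, a secreted protease inhibitor, was at 6.66, 12.5, 91.1 and 62.9 CPM, with 3.77 and 2.33, and 4.51 and 3.36 in cluster 1. The general astrocyte list was at -0.20 and -0.09 (-0.0718 and -0.0696 in cluster 1), and Fbln5 of the reactive list had -0.95 and 0.35.

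**Figure D3:**
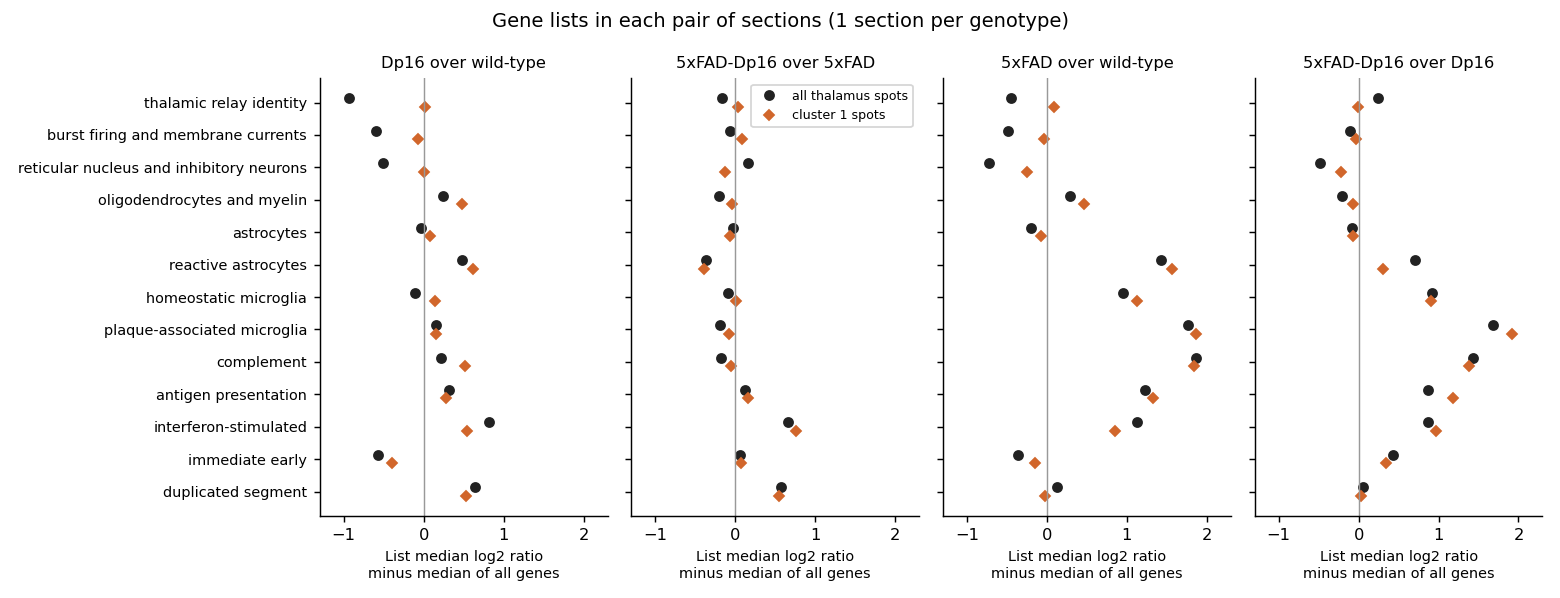
Median log2 ratio of 13 gene lists, minus the median of all genes, in each of the 4 pairs of sections, for all thalamus spots (circles) and for cluster 1 spots (diamonds). The relay list lies near 0 in every pair in cluster 1, which relay genes themselves lead. The microglial lists in the 5xFAD pairs and the duplicated segment in the Dp16 pairs stay well above 0 there.

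Lower genes were fewer. Cplx3, Trh and Six3, which mark cluster 10, and Pmch were among the 10 lowest. Kcnab3, a potassium channel subunit gene, was at 75.3, 30.1, 23.6 and 13.9 CPM, with ratios of -1.67 and -1.11 and of -1.04 and -0.69 in cluster 1. Arhgef26 was at 14.5, 17.6, 7.44 and 7.08 CPM, with -0.96 and -1.31 and with -0.93 and -1.63 in cluster 1. Hsd11b1, the enzyme that regenerates active glucocorticoid, was at 45.3, 36.9, 24.4 and 18.5 CPM, with -0.89 and -0.9999 and with -0.83 and -1.33 in cluster 1. For Arhgef26 and Hsd11b1 both 5xFAD sections were below both others.

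Deposited plaque marks allowed a comparison within a section. In thalamus 65 of 378 spots of 5xFAD (17.2%, exact binomial interval 13.5% to 21.4%) and 72 of 454 of 5xFAD-Dp16 (15.9%, 12.6% to 19.6%) were marked as plaque, against 13.3% (11.8% to 14.9%) and 13.03% (11.7% to 14.4%) of the other spots. A further 126 spots in each section were marked as neighbours, and no spot was marked in wild-type or Dp16. The sources used here do not describe how a spot was marked. Cst7 stood at 70.9 CPM in unmarked, 157 in neighbouring and 339 in plaque spots of 5xFAD, and at 35.2, 142 and 303 CPM in 5xFAD-Dp16. The log2 ratio of plaque over unmarked spots was 2.25 (1.94 to 2.58) and 3.11 (2.75 to 3.47), counting error only. Unmarked spots of both sections thus still held far more Cst7 than the spots of wild-type or Dp16. Trem2 followed the same order, with 114, 178 and 307 CPM in 5xFAD and 61.8, 178 and 307 CPM in 5xFAD-Dp16, and Ctsd with 847, 1183 and 1714 and with 629, 1161 and 1915 CPM. Gfap was at 139, 229 and 362 CPM and at 66.7, 132 and 242 CPM, and Serpina3n at 69.2, 93.1 and 141 CPM and at 40.8, 68.6 and 132 CPM. With plaque spots and their neighbours left out, the relative median of the plaque-associated list was 1.36 and 0.993.

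P2ry12 and several neuronal genes were read in the same spots. P2ry12, the purinergic receptor of resting microglia, had plaque over unmarked ratios of -0.33 (-1.22 to 0.48) and 0.16 (-0.75 to 1.00), and Apoe 0.34 and 0.48. Tcf7l2 was lower in plaque spots of both sections, at 461, 350 and 325 CPM in unmarked, neighbouring and plaque spots of 5xFAD and at 415, 331 and 306 CPM in 5xFAD-Dp16. Tnnt1 was higher, with ratios of 0.40 and 1.23, and Prkcd was at 0.07 (-0.07 to 0.22) and 0.79. Slc17a6 had 0.06 and -0.02. The marked spots were not matched for cluster, and the part of the cluster shares in these neuronal ratios was not tested.

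**Figure D4:**
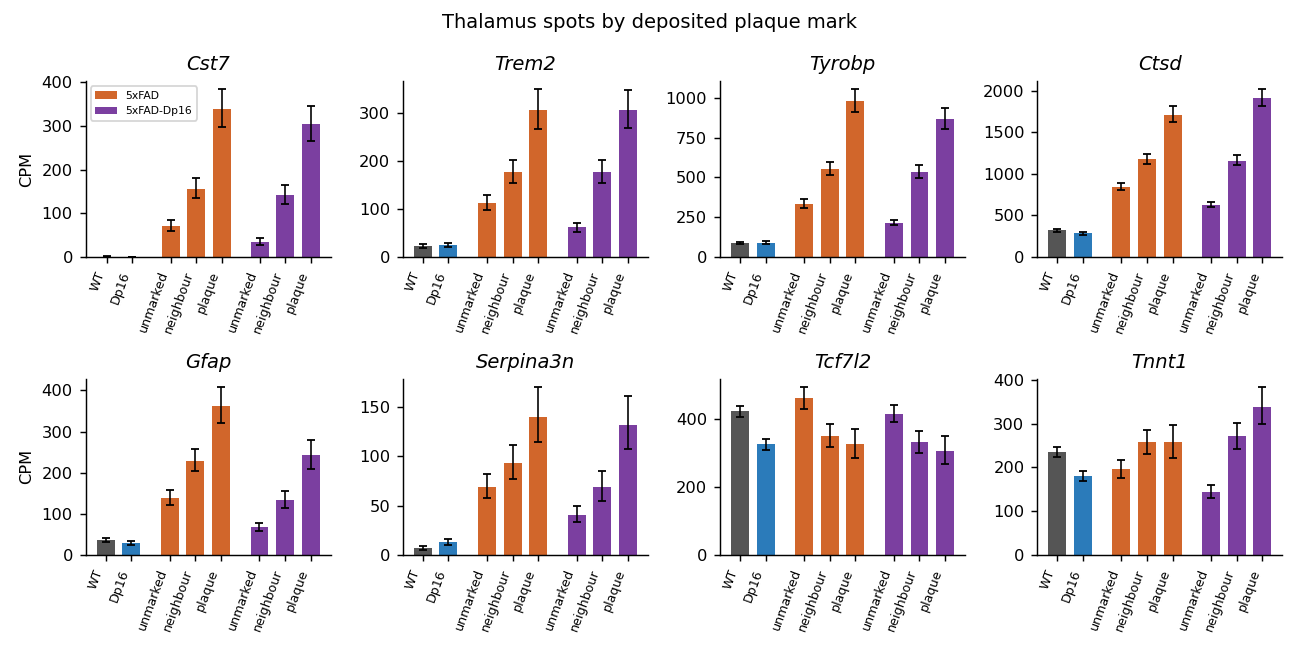
Level of 8 genes in thalamus spots by deposited plaque mark, in CPM. Each bar is 1 group of spots of 1 section and the error bars are exact Poisson 95% intervals of the count. The microglial and astrocyte genes are lowest in unmarked and highest in plaque spots of both 5xFAD sections, and Tcf7l2 has the opposite order.

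Among 12 regions the thalamus was near the top for the microglial response and near the bottom for the 5xFAD ratio of Thy1. Thy1, whose regulatory sequence drives the transgenes, was at 888, 600, 948 and 823 CPM in thalamus spots and at 481, 454.5, 1547 and 1239 CPM in other spots. The thalamus had the highest level of Thy1 of the 12 regions in wild-type and Dp16, where the next were at 604 and 566 CPM. Its ratio of 5xFAD over wild-type was 0.0928 in thalamus and that of 5xFAD-Dp16 over Dp16 0.457, rank 10 of 12 in both, while cortical regions had 1.64 to 2.20 and 1.33 to 1.89. Whether counts of Thy1 include reads of the transgenes was not tested. The thalamus ratios are over all its spots, of which cluster 1 held 82.0% in wild-type and 50.3% in 5xFAD. The plaque-associated list was at rank 2 in thalamus in the first pair, with a relative median of 1.76 against 1.86 in the cortical region labelled RSP, IL, and at rank 1 in the second, with 1.68 against 1.56 in hippocampus. The share of plaque spots in thalamus was rank 3 of 12 in 5xFAD and rank 5 in 5xFAD-Dp16. Cst7 was highest in thalamus in 5xFAD, at 152 CPM against 147 in hypothalamus, and rank 4 in 5xFAD-Dp16, at 107 CPM against 222 in FB. Each rank rests on 1 section per genotype, and neighbours in these orders were not tested against each other.

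**Figure D5:**
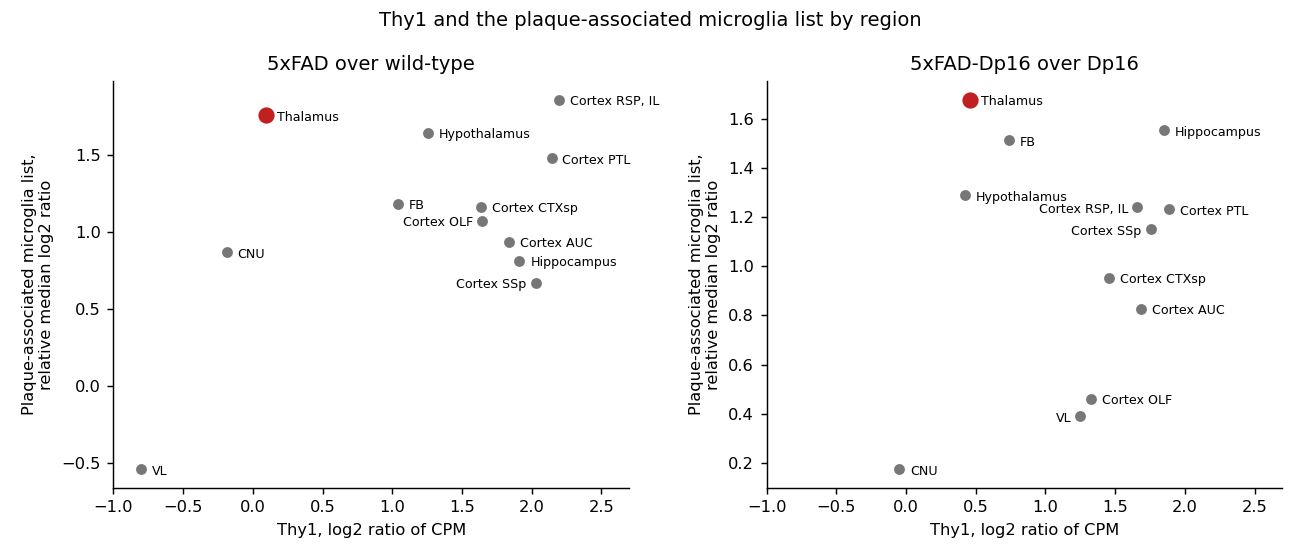
Each point is 1 of 12 regions, with the log2 ratio of Thy1 on the horizontal axis and the relative median log2 ratio of the plaque-associated microglia list on the vertical axis, for both 5xFAD pairs. The thalamus (red) lies at 0.0928 and 1.76 in the first pair and at 0.457 and 1.68 in the second, left of the cortical regions and at or near the top.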

How the data were processed

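Visium sections of 4 brains were analysed from a matrix of raw UMI counts per gene and spot that the authors deposited, with a table of spots that gives region label, expression cluster, plaque mark and the deposited percent of mitochondrial counts. The submitters' processing notes name Space Ranger, Seurat and build mm10. The sources used here do not say how region, cluster and plaque labels were made. Counts were summed per section and part. Regions were compared with edgeR 4.0.16 (quasi-likelihood test, filterByExpr, TMM factors, section as block, Benjamini-Hochberg adjustment at 0.05) in R 4.3.3. DESeq2 1.42.0 on all sections was run as an alternative, and each section was also left out in turn with edgeR. Genotype pairs, with 1 section each, were given as log2 ratios of CPM with exact conditional binomial intervals (95%, counting error only), over genes of at least 5 CPM on average and with a 1.5-fold threshold. A count of 0 was set to the floor of 3 counts in the section. For shares of spots, each spot was thinned to 5000 UMIs. The ratio intervals and the edgeR step were tested on simulated data. Genes were named by rank of the fold change, by membership of the gene lists and by a fixed list of genes. The members and lists were chosen with earlier results of these data known. Some genes that these rules name are not reported here.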

Additional observations from a re-analysis of the deposited data

Results flagged for a closer look

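In 4 sections, 47 genes were checked for a section whose log2 difference between thalamus and other spots lay far from the other 3, and chance marks about 1 gene in 20. Shox2 differed by 4.90 in the 5xFAD section and by 5.47 to 5.53 in the others. Gad2 differed by -0.0673 in the Dp16 section and by -0.52 to -0.44 in the others. Necab1, a calcium-binding protein gene, differed by 1.76 in the wild-type section and by 0.21 to 0.37 in the others, and its thalamus levels were 213, 59.2, 58.2 and 63.1 CPM, with wild-type first and then Dp16, 5xFAD and 5xFAD-Dp16. In cluster 1 these were 242, 124, 95.3 and 113 CPM.

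The 18 spots labelled Thalamus that belong to cluster 21 and were left out held genes of the habenula. In the 10 such spots of wild-type, Gng8 stood at 1335 CPM and Tac2 at 2467 CPM, against 8.88 and 5.03 CPM in the thalamus spots of that section. In the 8 of 5xFAD they stood at 1046 and 1147 CPM, against 25.2 and 1.86 CPM.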

How the results depend on the processing

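No paired analysis was possible because each genotype has 1 section, and the region comparisons already have the section as a block. Of 779 values of region genes under an alternative, 713 kept their direction and side of the threshold, 43 lost the call, 9 gained it and 14 changed direction. Against hypothalamus, DESeq2 called 993 genes higher and 854 lower, and leaving out each section in turn gave 657 to 1723 higher and 233 to 1717 lower, the fewest without 5xFAD-Dp16. With each section left out in turn, the difference from other spots ran from -0.44 (without wild-type) to 0.43 for Pvalb, from -1.41 (without wild-type) to 0.81 for Six3, from -0.178 to 0.0139 (without Dp16) for Calb1, from -0.36 to 0.19 (without 5xFAD) for Thy1, from -0.0297 (without 5xFAD) to 0.32 for Tyrobp and from -0.36 (without 5xFAD) to 0.68 for Serpina3n, and that from hypothalamus ran from -0.195 to 0.26 for Calb1. With other regions weighted equally Pvalb was at -0.0795, Six3 at -0.15 and Calb1 at 0.161, and with DESeq2 Six3 was at -0.57 and Serpina3n at -0.0903.

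Of 2712 genotype values, 2375 stayed, 306 moved and 31 changed sign. Genes past the fold in both Dp16 pairs were 376 higher and 280 lower at a minimum of 1 CPM, 17 and 25 at 20 CPM and 20 and 10 at 2-fold, with 65 lower under TMM. For 5xFAD they were 480 and 147, 56 and 8, and 68 and 7, with 76 lower in cluster 1 and 59 lower without plaque spots and neighbours. The plaque-associated list without those spots was at 1.36 and 0.993. Counting neighbours with plaque spots gave Cst7 ratios of 1.66 and 2.53. With at least 2 UMIs, Six3 was in 5.61% of wild-type spots and 0% of those of the other sections.

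In cluster 1 the relay list was at 0.0136, 0.0293, 0.0872 and -0.00973 in the 4 pairs. The choroid plexus list was at -0.11 and the oxidative phosphorylation list at -0.00291 for 5xFAD-Dp16 over 5xFAD. For 5xFAD over wild-type the oxidative phosphorylation list was at -0.13 (-0.0400 without plaque spots and neighbours) and the segment at -0.0230. Keeping cluster 21 put the habenula list at -2.97 for Dp16 over wild-type and -0.0887 in the pair 5xFAD over wild-type. With cluster 21 left out, and 3 of its 10 genes measured, the list was at 0.97 and 1.84, so both signs changed. Genes that changed sign in cluster 1 were, for Dp16 over wild-type, Lmo3 (-0.40), Wnt9b (0.14), Pcp4 (0.51), Slc17a7 (0.0655), Gad1 (0.53) and Lef1 (0.13), for 5xFAD-Dp16 over 5xFAD, Sspo (-0.73), Mia (-0.14), Myh7 (-0.14), Ttr (-0.26), Lmo3 (-0.56) and Btg3 (-0.0369), for 5xFAD over wild-type, Cplx3 (0.64), Trh (0.0407), Gad1 (0.35) and Gng8 (-0.10, and -0.0237 with cluster 21 kept), and for 5xFAD-Dp16 over Dp16, Ttr (-1.12, and -0.53 without clusters 12 and 13) and Tac2 (-0.29). The cause was not tested. Lists with fewer than 3 measured genes were not recomputed. Depth limits genes near 5 CPM, which rest on few UMIs in a section.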
